A study of Mus musculus with 11 samples.

Results

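Ier2, Ier3, Ier5, Ier5l, Arc, Phlda1, Trib1, Plk2, Plk3 and Sgk1 are genes known for rapid induction by growth factors, and none of them encodes a classical DNA-binding transcription factor. They were taken by symbol, through the RefSeq accessions of an FPKM table (fragments mapped to a transcript, scaled by its length and by the size of the library) from primary mouse embryonic palatal mesenchyme cells. Each of the 10 genes matched 1 row of the 23286 rows, and all 10 were among the 11702 rows with at least 1 FPKM in a group, which were the rows compared. The cells came from the palate of mouse embryos at E13.5 (mid-gestation), were grown in medium with 10% fetal bovine serum, and were starved overnight in 0.1% serum in every group. The starved group (4 libraries) received no ligand. The PDGFA group (4 libraries) received 30 ng/mL PDGFA for 1 h. The third received 50 ng/mL FGF1 together with 1 µg/mL heparin for 1 h (3 libraries), and since heparin was given with FGF1 alone, what FGF1 did and what heparin did cannot be told apart. The labels give no strain or genotype and do not say whether libraries came from separate litters or cultures.

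The deposited table holds 1 FPKM for each group, the authors' estimate over its libraries, and the bounds of its interval are printed here in brackets. There are no values per library, so nothing below rests on a test between replicates, and the depth is unknown. A gene is called higher or lower here where the brackets of both groups lie wholly apart, which is a description of group estimates. Log2 folds are of FPKM + 0.5. A wider reading, chosen after seeing the data, takes the bounds as 95% limits of independent groups and asks whether the resulting approximate interval of the FPKM ratio leaves out 1. The brackets were widest with PDGFA: the median half-width over compared rows was 49.6% of the FPKM there, 25.6% in starved cells and 34.7% with FGF1, and over the 10 genes it was 50.4%, 27.1% and 33.0%.

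PDGFA and FGF1 bind receptor tyrosine kinases, which signal through the Ras-ERK cascade and through phosphoinositide 3-kinase. Genes whose transcription starts within minutes of such a signal, without new protein synthesis, are called immediate early genes. The best known encode transcription factors such as Fos and Egr1. Others encode proteins that act at once on signalling, protein stability or the cytoskeleton, and these 10 genes are of that second kind: small regulators of the IER group, the Gag-like protein Arc, the PHLDA1 adaptor, a pseudokinase and 3 protein kinases. PDGF signalling through PDGFRA and FGF signalling are both needed for normal growth of the palate.

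All 10 genes had a higher FPKM with each ligand than in starved cells, as 49.3% of compared rows did with PDGFA and 56.0% with FGF1. With PDGFA, 2 of 10 were called higher (Arc and Phlda1), where 0.308% of compared rows were. With FGF1 and heparin, 8 of 10 were called higher, all but Ier5 and Plk2, where 0.538% of compared rows were. None was called lower with either ligand. The 10 genes were chosen with earlier results of these data known, so the shares in this paragraph are a description and no independent test. The median log2 fold of the 10 genes was 1.06 with PDGFA and 1.44 with FGF1, beside −0.00 and 0.02 over all compared rows. On the wider reading 8 of 10 lay higher with PDGFA, all but Plk2 and Sgk1, beside 1.13% of compared rows. With FGF1 9 of 10 did, all but Plk2, beside 1.04%. Both comparisons use the same starved cells and are not independent of each other.

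**Figure D1:**
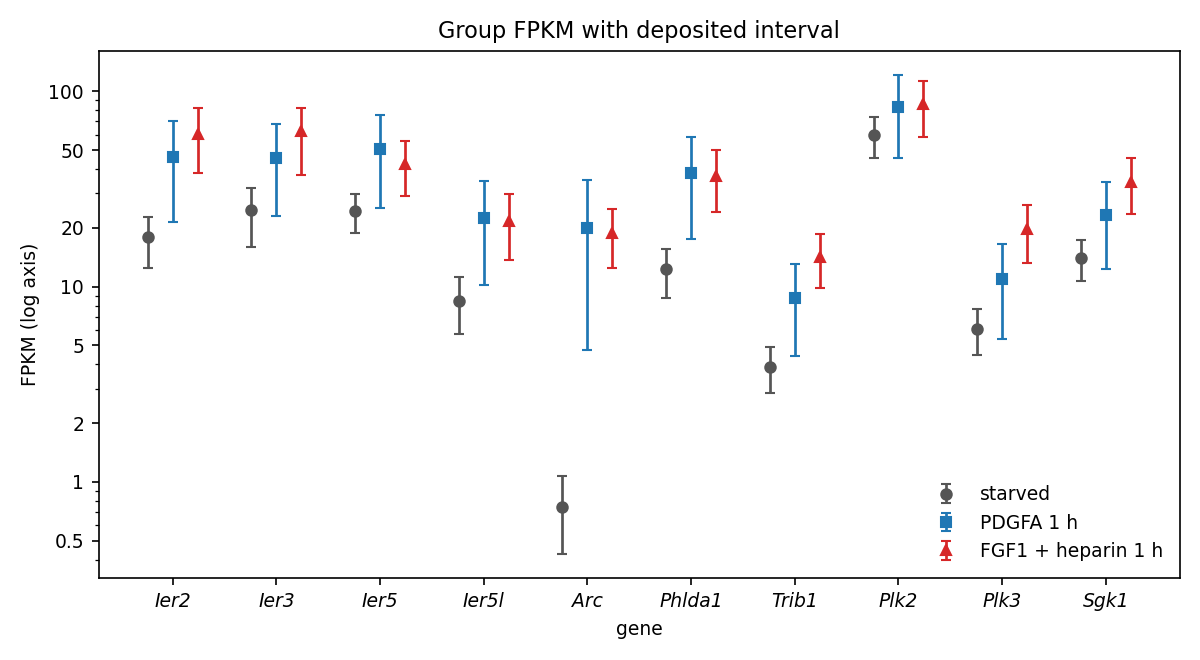
FPKM of the 10 genes in starved, PDGFA-treated and FGF1- and heparin-treated cells, on a log axis; points are the deposited group values and bars the deposited bounds. Plk2 had the highest value of the 10 in each group, and Arc moved from 0.746 FPKM to 19.9 and 18.7.

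The IER genes were named for immediate early response. IER2 and IER5 are short nuclear proteins with a related N-terminal region, IER5L is a close relative of IER5, and IER3 (also called IEX-1) is an unrelated small protein that is phosphorylated by ERK and modulates cell survival. Ier2, at chr8:84661331-84662852 of mm10, had 18.0 FPKM [12.5 to 22.7] in starved cells, 46.0 [21.4 to 70.5] with PDGFA and 60.1 [38.1 to 81.6] with FGF1. Its FGF1 bracket lay above the starved one, and its PDGFA bracket overlapped it narrowly, with a lower bound at 0.941 of the starved upper bound. The log2 fold was 1.33 with PDGFA and 1.71 with FGF1. Ier3, at chr17:35821713-35822911, had 24.7 FPKM [15.9 to 31.8], 45.4 [22.9 to 67.9] and 62.3 [37.2 to 81.7] in the same order. Again the FGF1 bracket alone stood clear of starved cells, with log2 folds of 0.86 and 1.32.

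Ier5, at chr1:155096367-155099636, and Ier5l had the higher value under PDGFA, Ier5l by a small margin. Ier5 had 24.3 FPKM [18.7 to 29.9] in starved cells, 50.5 [25.3 to 75.6] with PDGFA and 42.3 [29.2 to 55.3] with FGF1. Neither ligand's bracket stood clear, though with FGF1 the lower bound was 0.977 of the starved upper bound, a narrow miss. The log2 folds were 1.04 and 0.79, and on the wider reading both ratios lay above 1, at 2.08 [1.20 to 3.59] and 1.74 [1.18 to 2.55]. Ier5l, at chr2:30472641-30474199, was the IER gene with the lowest level: 8.48 FPKM [5.69 to 11.2] in starved cells, 22.4 [10.2 to 34.5] with PDGFA and 21.8 [13.7 to 29.8] with FGF1. It was called higher with FGF1, and its log2 folds of 1.35 and 1.31 were nearly equal. Reads of Ier5 and Ier5l can be told apart, as 0.123% of the 31-base words of the Ier5 transcript occur at another locus and 0.151% of those of Ier5l.

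The 250 bases before the start are shown for the 3 IER genes found in the RefSeq promoter table (GRCm38.p6, the same build as mm10), because they share a feature that the choice of genes did not use. Each is written 5′ to 3′ on the gene's strand, ending at the base before the start, and capitals mark CCAAT in either orientation (CCAAT or ATTGG). The places are chr17:35821463-35821712 on the plus strand for Ier3, chr1:155099637-155099886 on the minus strand for Ier5, and chr2:30474200-30474449 on the minus strand for Ier5l.
Ier3: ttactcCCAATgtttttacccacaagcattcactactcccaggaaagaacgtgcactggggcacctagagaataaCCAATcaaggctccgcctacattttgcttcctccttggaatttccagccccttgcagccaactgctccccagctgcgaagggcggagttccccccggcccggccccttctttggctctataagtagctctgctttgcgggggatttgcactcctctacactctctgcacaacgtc
Ier5: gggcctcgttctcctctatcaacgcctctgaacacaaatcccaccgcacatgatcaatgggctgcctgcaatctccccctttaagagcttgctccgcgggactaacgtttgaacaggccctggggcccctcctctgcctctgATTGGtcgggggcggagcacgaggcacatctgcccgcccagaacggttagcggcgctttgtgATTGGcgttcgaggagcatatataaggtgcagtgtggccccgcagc
Ier5l: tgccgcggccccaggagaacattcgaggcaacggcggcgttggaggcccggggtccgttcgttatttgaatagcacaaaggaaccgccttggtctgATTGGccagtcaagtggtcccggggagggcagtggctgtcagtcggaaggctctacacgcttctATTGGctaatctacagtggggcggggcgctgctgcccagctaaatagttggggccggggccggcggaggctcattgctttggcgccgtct
Each of the 3 windows holds CCAAT 2 times, counted on both strands. Of 32851 promoter windows of the same length, 33.8% hold it at least 1 time and 10.1% at least 2 times. Of the 6 Sgk1 starts, 1 holds it 1 time and 1 holds it 2 times, and the Plk2 and Plk3 windows do not hold it. CCAAT was added to the search after these sequences had been read, so the match is a description. It does not show that a factor binds there.

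Arc encodes a protein derived from a retrotransposon Gag, which forms capsid-like shells and in neurons helps to remove AMPA receptors from synapses. Its transcription is a standard marker of recent neuronal activity and is also switched on by growth factors in other cells. Arc, at chr15:74669081-74672570, had 0.746 FPKM [0.428 to 1.07] in starved cells, 19.9 [4.74 to 35.1] with PDGFA and 18.7 [12.5 to 25.0] with FGF1. It was the lowest of the 10 genes in starved cells, and both ligand brackets lay far above the starved one. The ratio was 26.7 [11.1 to 64.0] with PDGFA and 25.1 [14.6 to 43.3] with FGF1, on the wider reading's approximate intervals, and the log2 folds were 4.03 and 3.95. Arc met the filter of 1 FPKM through the ligand groups only, where it was high, so its ranks among compared rows are a description. With FGF1 the Arc log2 fold ranked 6 among the 11702 compared rows. With PDGFA it ranked 80, and of the 79 rows above it 73 were listed at 0 FPKM in both other groups. The PDGFA estimate of Arc is loose, with a half-width of 76.2% of the FPKM.

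Since Arc is best known from neurons, the levels of neuronal RNA are given beside it. The 8 neuron markers summed to 50.3 FPKM in starved cells, 54.7 with PDGFA and 52.2 with FGF1. Most of that was Stmn2, a microtubule regulator, at 39.2, 43.9 and 41.0 FPKM. Of the others, Map2 had 9.11, 8.38 and 9.06 FPKM, Syt1 1.05, 1.06 and 1.15, and Syn1, whose brackets reach down to 0, 0.858, 1.15 and 0.885. Elavl4 had 0.0958, 0.117 and 0.118 FPKM, Elavl3 lay lower, Rbfox3 was listed at 0 in all 3 groups, and Snap25 was at 0.0108 FPKM in starved cells and listed at 0 in both others. In all, 5 of the 8 markers lay under 1 FPKM in starved cells, 4 with PDGFA and 5 with FGF1. The part of neuronal RNA in the Arc values was not tested. Of 12 genes linked to Arc at synapses, 9 were compared and none was called with either ligand, with median log2 folds of 0.30 and 0.17. The largest PDGFA fold of the list was that of Npas4, from 1.17 to 3.12 FPKM, a log2 fold of 1.12. With FGF1 it was that of Homer1, from 5.51 to 9.37 FPKM, a log2 fold of 0.72. In both cases the brackets overlapped, and the wider reading is not given for this list. The most abundant, Sh3gl1 of the endophilin family and the dynamin gene Dnm2, which act in endocytosis, had 60.5 and 43.2 FPKM in starved cells, 76.6 and 54.2 with PDGFA, and 65.9 and 45.4 with FGF1. The brackets of Stmn2, Map2, Sh3gl1 and Dnm2 overlapped between all groups.

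Phlda1 encodes a protein with a pleckstrin homology-like domain that binds phosphoinositides and has been tied to cell survival. At chr10:111506286-111508649, it had 12.3 FPKM [8.78 to 15.6] in starved cells, 38.0 [17.5 to 58.4] with PDGFA and 37.0 [24.1 to 49.8] with FGF1. Both ligand brackets stood clear of starved cells, with log2 folds of 1.59 and 1.55. The PDGFA call is a close one, since its lower bound was 1.13 times the starved upper bound. With a trend on GC content, transcript length and level removed, the PDGFA log2 fold was 1.35 and the call ended. A further limit is that 34.9% of the 31-base words of Phlda1 are shared with Gm28592, annotated on the opposite strand at the same place. The sources used here do not say whether the libraries keep strand, so reads of the pair may not be told apart. The relative Phlda3 was far more abundant, at 283 FPKM [198 to 347], 352 [179 to 524] and 308 [194 to 420], with overlapping brackets.

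Trib1 encodes a pseudokinase, a kinase fold that has lost most catalytic activity and acts as a scaffold, bringing C/EBP transcription factors to the COP1 ubiquitin ligase. At chr15:59648654-59657099, it had 3.90 FPKM [2.87 to 4.93] in starved cells, 8.74 [4.44 to 13.0] with PDGFA and 14.2 [9.82 to 18.6] with FGF1. The FGF1 bracket stood well clear of starved cells and the PDGFA bracket overlapped by a small margin, with log2 folds of 1.74 and 1.07. Of its partners, 3 were compared, with median log2 folds of −0.13 with PDGFA and −0.01 with FGF1, and Cebpb was called higher with both ligands. Cop1 and Det1 were not called, with log2 folds of −0.17 and −0.13 with PDGFA and −0.01 and −0.18 with FGF1. Cebpa was not compared, at 0.705 FPKM in starved cells, 0.870 with PDGFA and 0.732 with FGF1. Cebpb, a C/EBP factor gene, had 12.4 FPKM [8.41 to 16.2], 41.8 [17.2 to 66.3] and 26.7 [16.5 to 36.6], with log2 folds of 1.71 and 1.08. The relatives Trib2 and Trib3 were not called: Trib3, a stress-induced member, had 64.0 FPKM in starved cells, 57.7 with PDGFA and 58.9 with FGF1, and Trib2 had 12.6, 13.2 and 12.0.

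PLK2 and PLK3 are polo-like kinases first described as serum-inducible and FGF-inducible kinases, respectively, and unlike the mitotic kinase PLK1 they respond to signals and stress outside mitosis. Plk3, at chr4:117126813-117133952, had 6.08 FPKM [4.48 to 7.68] in starved cells, 10.9 [5.36 to 16.5] with PDGFA and 19.7 [13.3 to 26.1] with FGF1. It was called higher with FGF1, with log2 folds of 0.79 and 1.62. The locus also covers Tctex1d4 on the opposite strand, which was below 0.1 FPKM in all 3 groups. Plk2, at chr13:110395044-110400843, was the most abundant of the 10 genes and had the smallest folds. It had 59.6 FPKM [45.5 to 73.4] in starved cells, 83.5 [45.5 to 121] with PDGFA and 85.9 [58.4 to 113] with FGF1. The brackets overlapped in each comparison, with log2 folds of 0.48 and 0.52, and the ratios of 1.40 [0.840 to 2.34] and 1.44 [0.970 to 2.14] did not leave out 1. In starved cells Plk2 had the highest FPKM of the 10 by a clear margin, its bracket lying above that of Ier3, the next. The relative Plk1 had 12.9 FPKM [9.34 to 16.3] in starved cells and 14.4 [7.68 to 21.1] with PDGFA, and it was called with neither ligand.

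Sgk1 encodes the serum- and glucocorticoid-regulated kinase, a relative of AKT whose activity needs phosphorylation by mTORC2 and PDK1 downstream of phosphoinositide 3-kinase. Its row covers 6 RefSeq transcripts at chr10:21882184-21999902. Sgk1 had 14.0 FPKM [10.7 to 17.3] in starved cells, 23.3 [12.3 to 34.4] with PDGFA and 34.5 [23.6 to 45.4] with FGF1. The FGF1 bracket stood clear of starved cells and the PDGFA bracket did not, with log2 folds of 1.27 and 0.72. On the wider reading its PDGFA ratio of 1.67 [0.982 to 2.83] just failed to leave out 1.

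The kinase promoters are shown for the cyclic AMP response element, the site of CREB and ATF factors, and for the letters of the TATA box. A working TATA box helps to fix where transcription starts. Capitals mark TGACGTCA, its shorter form TGACG (which lies within it) or TATAAA, on either strand. Plk2 is at chr13:110394794-110395043 on the plus strand and Plk3 at chr4:117133964-117134213 on the minus strand. The Sgk1 windows shown are those of 2 of its 6 starts, at chr10:21991973-21992222 (start a) and chr10:21994416-21994665 (start b), both on the plus strand.
Plk2: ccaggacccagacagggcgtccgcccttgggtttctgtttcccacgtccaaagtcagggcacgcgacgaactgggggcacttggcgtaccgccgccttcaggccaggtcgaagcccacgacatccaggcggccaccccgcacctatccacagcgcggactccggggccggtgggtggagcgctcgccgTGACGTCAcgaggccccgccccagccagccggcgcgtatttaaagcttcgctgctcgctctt
Plk3: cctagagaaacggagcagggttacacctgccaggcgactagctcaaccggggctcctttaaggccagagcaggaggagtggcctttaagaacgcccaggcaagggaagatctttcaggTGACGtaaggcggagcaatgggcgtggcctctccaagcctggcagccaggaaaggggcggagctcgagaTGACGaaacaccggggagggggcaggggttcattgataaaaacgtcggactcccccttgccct
Sgk1 start a: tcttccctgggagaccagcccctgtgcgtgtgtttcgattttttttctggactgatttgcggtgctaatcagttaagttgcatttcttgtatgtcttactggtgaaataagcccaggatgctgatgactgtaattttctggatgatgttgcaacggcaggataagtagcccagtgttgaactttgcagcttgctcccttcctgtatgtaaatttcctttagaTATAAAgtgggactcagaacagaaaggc
Sgk1 start b: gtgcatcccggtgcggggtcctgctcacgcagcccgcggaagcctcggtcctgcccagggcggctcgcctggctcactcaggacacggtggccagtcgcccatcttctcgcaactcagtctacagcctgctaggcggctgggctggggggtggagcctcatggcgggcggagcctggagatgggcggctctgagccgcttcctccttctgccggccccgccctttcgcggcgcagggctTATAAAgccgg
Plk2 holds the full TGACGTCA, 62 to 55 bases before the start, as do 1.55% of the 32851 windows. TGACG stands in the windows of Plk2, of Plk3 (132 to 128 and 63 to 59 bases before the start) and of another Sgk1 start, and in 17.8% of all windows. TATAAA lies 28 to 23 bases before Sgk1 start a and 11 to 6 bases before start b, and 12.4% of all windows hold it. The places differ, and whether either match works as a TATA box for its start was not tested. The SRF site known as the CArG box, the AP-1 site TGANTCA, the ETS site CCGGAAG and the EGR site GCGNGGGCG were in 0 of the 11 member windows, beside 1.47%, 6.75%, 6.91% and 4.70% of all windows. Of these 11 windows 6 are Sgk1 starts, and Ier2, Arc, Phlda1 and Trib1 have none. With shares this low and windows this few, 0 matches is no result about the 10 genes. Plk2, with the full TGACGTCA, had the smallest folds of the 10 genes, and these letters say nothing of which factor acted.

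**Figure D2:**
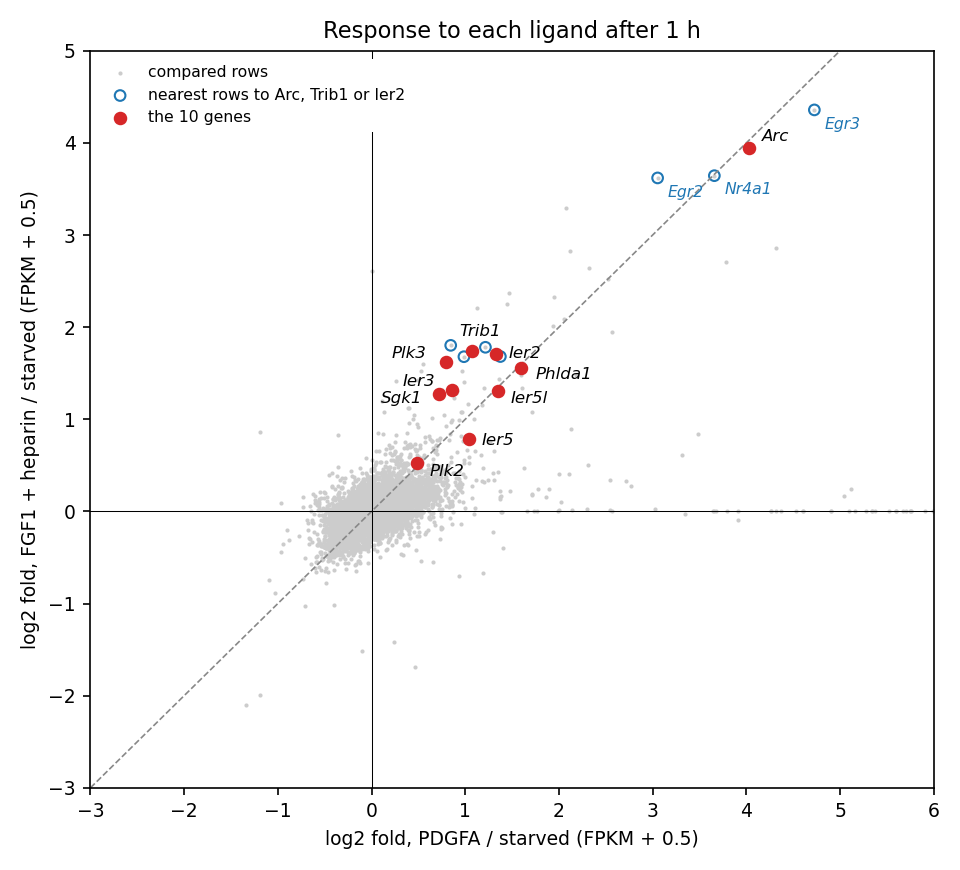
Log2 fold of FPKM + 0.5 with PDGFA (horizontal) against FGF1 with heparin (vertical), both relative to starved cells; grey points are compared rows, red points the 10 genes, open blue circles the rows nearest to Arc, Trib1 or Ier2, and the dashed line marks equal folds, with 63 rows outside the plotted range. The 10 genes lie above 0 on both axes, from Plk2 at 0.48 and 0.52 to Arc at 4.03 and 3.95.

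Set directly against each other, the ligands gave no call among the 10 genes, by brackets or by the wider reading, where 0.120% and 0.513% of compared rows were called. Over all rows 3 were called higher with FGF1 and 11 lower, or 1 and 11 with median-of-ratios scaling. Of the 10, 6 had the higher FPKM with FGF1, near the 53.1% of compared rows that did. Plk3 had the highest ratio of FGF1 to PDGFA, 1.80 [0.985 to 3.30], followed by Trib1 at 1.63 [0.911 to 2.91] and Sgk1 at 1.48 [0.836 to 2.61]. Their log2 folds of 0.82, 0.67 and 0.55 ranked 23, 49 and 90 among the 11702 rows. Ier3 had a ratio of 1.37 [0.746 to 2.53] and Ier2 of 1.31 [0.685 to 2.49].

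The remaining genes had nearly equal levels under both ligands or a higher one with PDGFA. Arc had a ratio of FGF1 to PDGFA of 0.942 [0.410 to 2.16], Ier5l of 0.973 [0.505 to 1.88], Phlda1 of 0.974 [0.513 to 1.85] and Plk2 of 1.03 [0.590 to 1.79]. Ier5 had the lowest, 0.837 [0.466 to 1.51]. Each of these intervals is wide and leaves room for a difference in either direction, so the table does not show that the ligands act alike. The doses also differ, at 30 ng/mL and 50 ng/mL.

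**Figure D3:**
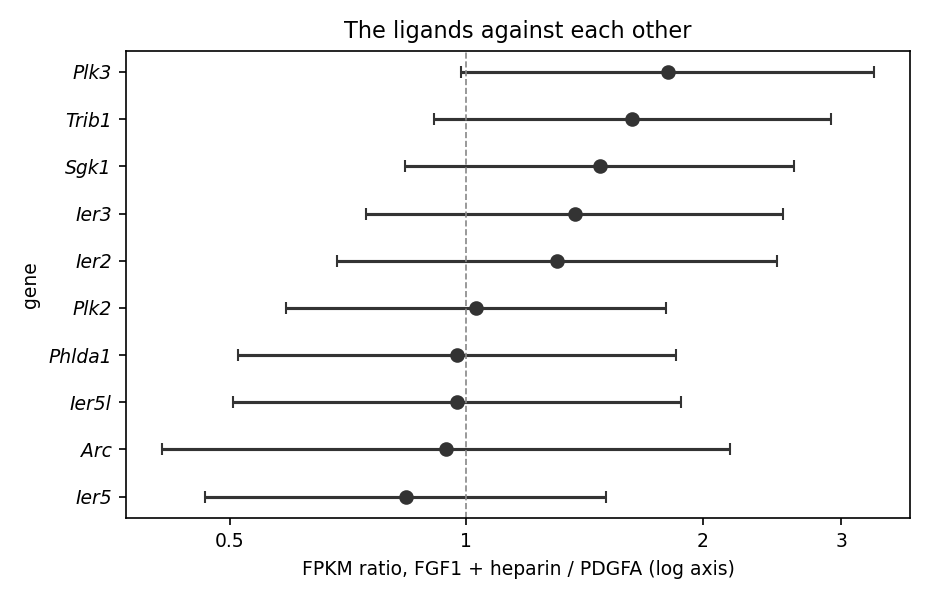
Ratio of FPKM with FGF1 and heparin to FPKM with PDGFA for the 10 genes on a log axis; bars are approximate intervals made from the deposited bounds taken as 95% limits. All 10 bars cross 1, from Plk3 at 1.80 to Ier5 at 0.837.

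FPKM, being per length, also allows the levels of the genes to be ordered. In starved cells the 10 genes ran from Plk2, Ier3, Ier5, Ier2, Sgk1, Phlda1, Ier5l, Plk3 and Trib1 down to Arc, and of the neighbours in that order Plk2 stood apart from Ier3 and Trib1 from Arc. With PDGFA and with FGF1 the brackets of all neighbours overlapped. Arc moved from last to place 8 with PDGFA and place 9 with FGF1, and Trib1 took the last place in both.

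By distance in the plane of both log2 folds, a measure that rests on 3 group values a gene, Nr4a1 (0.48), Egr3 (0.80) and Egr2 (1.03) lay nearest to Arc. All 3 are immediate early transcription factor genes, and no compared row lay within 0.25 of Arc. Nearest to Trib1 were the ERK phosphatase gene Dusp6 (0.11), Fos (0.15) and Klf10 (0.23). Among the rows nearest to Ier2 were Fos (0.13) and Trib1 (0.26).

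Several properties were common among the 10 genes beyond their induction. Short, simple genes prevailed: 7 of 10 have 1 to 3 exons, beside 14.9% of compared rows, and Ier2, Ier5 and Ier5l have a single exon, as 3.67% of rows do. The kinase genes differ, with 14 exons in Plk2, 15 in Plk3 and 14 in Sgk1. Of the 10, 9 span under 10 kb, beside 27.3% of rows, the exception being Sgk1 at 117710 bases. Exons and span were taken from the longest transcript of each row. Sgk1 has 6 starts, and the spans of its other transcripts were not measured. The median transcript length was 2742 nt against 3033 nt. The ATTTA element that marks many unstable mRNAs is in the 3′ untranslated region of 7 of 10, close to the 70.1% of all compared rows, and is densest in Plk3 at 12.0 per kb and Ier3 at 8.16 per kb. Ier2, Arc and Trib1 have none.

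The PDGFA values moved with base composition. The median GC content of the 10 transcripts was 56.6%, against 50.3% over compared rows, and PDGFA folds were higher for rows of higher GC content. Rows within 1 percentage point of the GC content of Ier5l had a median PDGFA log2 fold of 0.35, and those near Ier2, Plk3, Arc and Phlda1 had 0.26, 0.21, 0.21 and 0.20. Rows near Plk2 and Sgk1 had −0.06 and −0.05. With FGF1 these medians were at most 0.14. Arc kept its PDGFA call with the trend removed, at a log2 fold of 3.82, Phlda1 lost it, and the 8 calls with FGF1 remained. For FGF1 against PDGFA the log2 folds of Arc, Ier5l and Phlda1 turned from −0.08, −0.04 and −0.04 to 0.08, 0.20 and 0.10 with the trend removed, and that of Plk2 from 0.04 to −0.05, with no call among them.

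**Figure D4:**
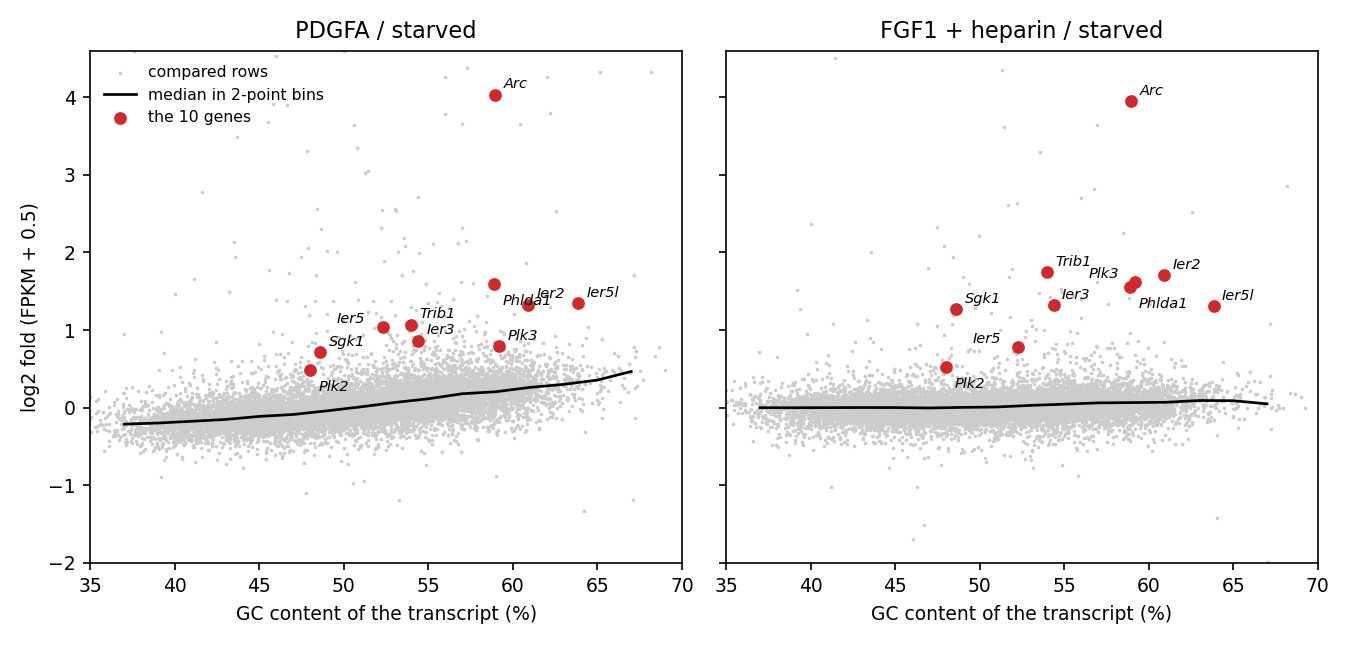
Log2 fold of FPKM + 0.5 against GC content of the transcript (percent), for PDGFA (left) and FGF1 with heparin (right) relative to starved cells; grey points are compared rows, the line their median in 2-point bins, red points the 10 genes, with 94 and 32 rows outside the panels. The line climbs with GC content for PDGFA and is nearly flat for FGF1, and Arc lies at 4.03 and 3.95, far from it.

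Calls among genes of the pathways around the 10 stand beside 0.308% of compared rows called higher with PDGFA and 0.538% with FGF1. At these shares a short list without a call, here or in other paragraphs, says little about its genes. Of 19 genes of the ERK pathway from Ras to SRF, none was called with either ligand, and the median log2 folds were 0.06 and 0.11. Hras and Mapk3, the latter encoding ERK1, had 52.0 and 59.2 FPKM in starved cells, 84.2 and 72.6 with PDGFA, and 68.0 and 66.5 with FGF1. Of 18 genes of SGK1 activation and its substrates none was called, with medians of 0.01 and −0.02. Akt1 had 166, 215 and 184 FPKM, and Pik3r2, a phosphoinositide 3-kinase subunit, 37.4, 45.7 and 37.3. The 8 partners and substrates of PLK2 and PLK3 had medians of −0.01 and 0.02 with none called, among them Hif1a at 52.5, 45.0 and 53.9 FPKM and Sipa1l1 at 27.4, 29.2 and 26.8. Of 9 genes of the HSF1 axis, the heat shock pathway that IER5 feeds, Dnajb1, a co-chaperone gene, was called higher with FGF1, at 35.5 FPKM [26.6 to 44.3] in starved and 67.3 [45.2 to 89.2] in FGF1 cells, a log2 fold of 0.91.

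Other genes known for rapid induction, in lists chosen with earlier results of these data known, were called in part. Of 13 other inducible kinase genes compared, 0 were called with PDGFA and 3 with FGF1: Nuak2, an AMPK relative, from 4.33 to 12.5 FPKM, Pim1, a survival kinase, from 7.96 to 18.4, and Map3k14, the kinase NIK, from 5.06 to 9.40. Their log2 folds were 1.43, 1.16 and 0.83. Of 28 other rapidly induced genes that encode no transcription factor 2 were called with PDGFA and 9 with FGF1, with medians of 0.68 and 0.64. Ptgs2, the inducible prostaglandin synthase, had 17.7, 49.8 and 93.7 FPKM, Errfi1, an inhibitor of EGF receptor signalling, 6.84, 27.7 and 36.4, and Hbegf, an EGF receptor ligand, 12.0, 26.8 and 57.3. Of 27 rapidly induced transcription factors 12 were called with PDGFA and 20 with FGF1, with medians of 1.22 and 1.60.

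Of the 9 family relatives of the 10 genes 5 were compared and none was called. Among 9 compared reference genes none was called, with medians of −0.03 and 0.15. Gapdh, a gene that every cell uses, was listed at 0.113 FPKM in starved cells, so a low value of a single row here does not show that a gene is silent.

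The labelled cell type was checked against markers. Of 13 palatal mesenchyme markers 11 had at least 1 FPKM in a group, among them Vim, Col3a1 and Prrx1, and the set summed to 3201, 3970 and 3550 FPKM in starved, PDGFA and FGF1 cells. Most of that sum was Vim, at 1982, 2582 and 2315 FPKM, so the sum says little of the other markers. In starved cells Msx1, Shox2 and Pax9 had 59.8, 18.6 and 13.9 FPKM. The lowest of the 11 were Pdgfra, Osr2 and Meox2, at 3.87, 3.73 and 1.43 FPKM there. Tbx22 lay under 0.1 FPKM. The Col1a1 row is 1 of the 2 failed estimates of the table, so its listed 0 is no measurement. Of 8 epithelial markers 7 lay under 1 FPKM in all groups, with Krt18 at 3.00, 5.01 and 4.08 FPKM. The 5 endothelial markers summed to 3.59, 4.28 and 3.78 FPKM, and blood and immune markers were all under 1 FPKM. The 6 skeletal muscle markers summed to 1.60, 3.72 and 1.90 FPKM. All 6 lay under 1 FPKM in starved and FGF1 cells and 4 did with PDGFA, and the leading ones were Des at 0.751, 1.82 and 0.897 and Myog at 0.687, 1.56 and 0.859. Their part in the PDGFA values of the 10 genes was not tested. In bulk RNA, more cells that express a gene and more RNA per cell cannot be told apart.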

How the data were processed

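PolyA RNA of 11 libraries was profiled. Per the submitters' processing notes, the tools were Cuffdiff, TopHat and CASAVA and the build mm10; versions, settings and annotation are not stated in the sources used here. Deposited FPKM are 1 value per group, made by the authors, and the deposited lower and upper bounds are the authors' interval for it, per the file headers, with no stated confidence level. FPKM scales by length and by library, so 1 gene's value can shift when others change. Read depth is unknown, and a p-value, SD or leave-one-out fit would need values per library.

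RefSeq accessions were named through the RefSeq gene table of GRCm38.p6 (22992 rows) or GENCODE M21 (126); 168 rows had no name. The file's start positions count from 0 and are printed from 1. Rows with at least 1 FPKM in a group and no failed estimate were compared (11702 of 23286; 2 failed). A call needed brackets wholly apart and each FPKM inside its own bracket. Promoter windows were the 250 bases before each RefSeq start; 6 of 10 genes matched by symbol (not Ier2, Arc, Phlda1 and Trib1). Transcript length, GC content and exons came from GENCODE M21. The call rule and trend fit were run on simulated data as a check of the code. The simulated noise was drawn from the deposited bounds, so it cannot show whether those bounds reflect variation between libraries.

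The members and gene lists were chosen with earlier results of these data known. Named genes are all 10 members, called genes of each list (at most 4, by size of fold) or, with none called, the 2 of highest mean FPKM; 1 gene that the rule names is not reported here. Work used matplotlib 3.10.9, statsmodels 0.14.6, scipy 1.17.1, pandas 2.3.3, numpy 2.4.6 and Python 3.11.15.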

Additional observations from a re-analysis of the deposited data

How the results depend on the processing

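No paired analysis was possible because the table holds group values only, and for the same reason no library could be left out. Across 10 settings, 8 planned and 2 chosen after seeing the data, all 10 members stayed above starved cells with each ligand, and their calls were as reported in 93 of 100 cases with PDGFA, 99 with FGF1 and 100 between ligands. Many of these cases were fixed in advance, so the tally does not measure robustness. A call uses the FPKM and the brackets alone, so the pseudocount could not change one. The filters on low values could not either, since each member exceeds 5 FPKM in a group. Of the settings, only the scaling, quantile, trend and ratio-interval ones could move a member's call. With PDGFA, members called higher went from 2 to 1 with the trend on GC content, length and level removed, and to 8 where the interval of the ratio leaves out 1; rows called higher went from 36 to 132 there, and rows called lower from 0 to 1 with no filter on low values, 3 with quantile normalization and 9 with the ratio interval. With FGF1, rows called lower went from 2 to 1 with a filter of 5 FPKM and to 1 with a minimum fold of 2, and to 25 with the ratio interval, where rows called higher went from 63 to 122. Between ligands, rows called lower with FGF1 went from 11 to 5 with a filter of 5 FPKM and to 43 with the ratio interval, and rows called higher from 3 to 1 with median-of-ratios scaling and to 17 with the ratio interval. The cause of these shifts was not tested beyond what each setting does by construction. The limits are that 3 group values stand for 11 libraries, that the confidence level of the bounds is unstated, and that wide PDGFA brackets make a missing call there uninformative.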
